A study of Capra hircus with 20 samples.

Results

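The genes described here are 10 transcriptional regulators and markers of fat cell formation, PPARG, CEBPA, CEBPB, CEBPD, SREBF1, ZNF423, EBF1, ADIPOQ, MEDAG and DLK1. They were taken by symbol from the deposited mRNA table, where they are 10 of 20587 genes and hold 22 of 43766 transcripts, and the transcripts of a symbol were summed. Cells were isolated with collagenase from the longissimus dorsi muscle and the subcutaneous fat of 7-day-old male Jianzhou Daer goats and were used at passage 3. The groups are intramuscular preadipocytes (IMPA), intramuscular adipocytes (IMA), subcutaneous preadipocytes (SPA) and subcutaneous adipocytes (SA), with 5 libraries each. Preadipocytes were collected at day 0 and adipocytes after 3 days in serum medium with oleic acid, so both adipocyte groups carry the fatty acid as well as the time in culture. All 4 groups are primary cultures, and the goat behind each library was not given in the sources used here. The question is how far the adipogenic programme had run by day 3 in each cell type.

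Adipogenesis is driven by a sequence of transcription factors. CEBPB and CEBPD act early after induction and switch on PPARG and CEBPA, which bind together at most genes of the mature fat cell and hold each other's expression up. ZNF423 and EBF1 mark committed precursors, SREBF1 drives fatty acid synthesis, MEDAG promotes lipid storage, ADIPOQ is a hormone made by mature fat cells, and DLK1 is a membrane protein of preadipocytes that holds differentiation back.

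Values are FPKM, fragments scaled by transcript length and by the mapped fragments of the library, so that levels of different genes are compared per length. Over the mRNA table, a library held 373889 to 413880 FPKM in total and 15126 to 16961 genes above 0. The tables hold no counts and do not tell how many fragments a value rests on, but the spacing of low values gave a relative depth of 1.67 to 2.30 times the shallowest library in IMPA, 1.23 to 1.61 in IMA, 1.17 to 1.55 in SPA and 1.00 to 1.32 in SA. The IMPA libraries were thus deeper than every IMA library. SPA1 stood apart from the other SPA libraries in muscle genes, with MYLPF at 6.42 FPKM against 0.0297 to 0.157 FPKM in the other 4, and leaving SPA1 out changed no call of the 10 genes except that of DLK1 in IMPA against SPA. In bulk RNA, fewer cells of a type and less RNA per cell cannot be told apart.

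The labelled cell types were checked against their defining genes. Of 14 preadipocyte and stromal genes, the summed level was 5768 to 8277 FPKM in IMPA, 7189 to 8122 in IMA, 14228 to 14721 in SPA and 12260 to 12758 in SA, and the stromal receptor gene PDGFRA was above 100 FPKM in all 4 group means (148, 107, 572 and 327 FPKM). Of 12 skeletal muscle genes in the table, the sum was 2713 to 3116 FPKM in IMPA and 9504 to 10172 FPKM in IMA, against 6.86 to 20.1 FPKM in SPA and 7.46 to 9.12 FPKM in SA. The myogenic factor MYOG averaged 649 FPKM in IMPA and 736 FPKM in IMA. Endothelial genes summed to at most 7.88 FPKM and macrophage and leukocyte genes to at most 18.3 FPKM in any library. The intramuscular cultures therefore held muscle transcripts at both stages, and the part of muscle cells in any intramuscular value below was not tested.

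The 10 genes differed widely in level. CEBPD was the most abundant in IMPA, IMA, SPA and SA, at 229 ± 54.0, 158 ± 14.1, 414 ± 12.7 and 313 ± 22.3 FPKM (mean ± SD, n = 5), above 98.5% to 99.3% of all genes in the table. MEDAG and CEBPB followed at group means between 40.5 and 352 FPKM. EBF1 and CEBPA lay between 2.21 and 19.8 FPKM. SREBF1 averaged 1.35 to 2.30 FPKM, and ZNF423 0.718 to 1.28 FPKM. PPARG averaged 0.475, 0.364, 0.624 and 1.03 FPKM in IMPA, IMA, SPA and SA. ADIPOQ stayed at or under 0.596 FPKM in every library, and DLK1 at or under 0.269 FPKM. After the minimum mean of 1 FPKM, 6 of the 10 genes entered the limma test, and PPARG, ZNF423, ADIPOQ and DLK1 were compared by exact permutation alone.

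**Figure D1:**
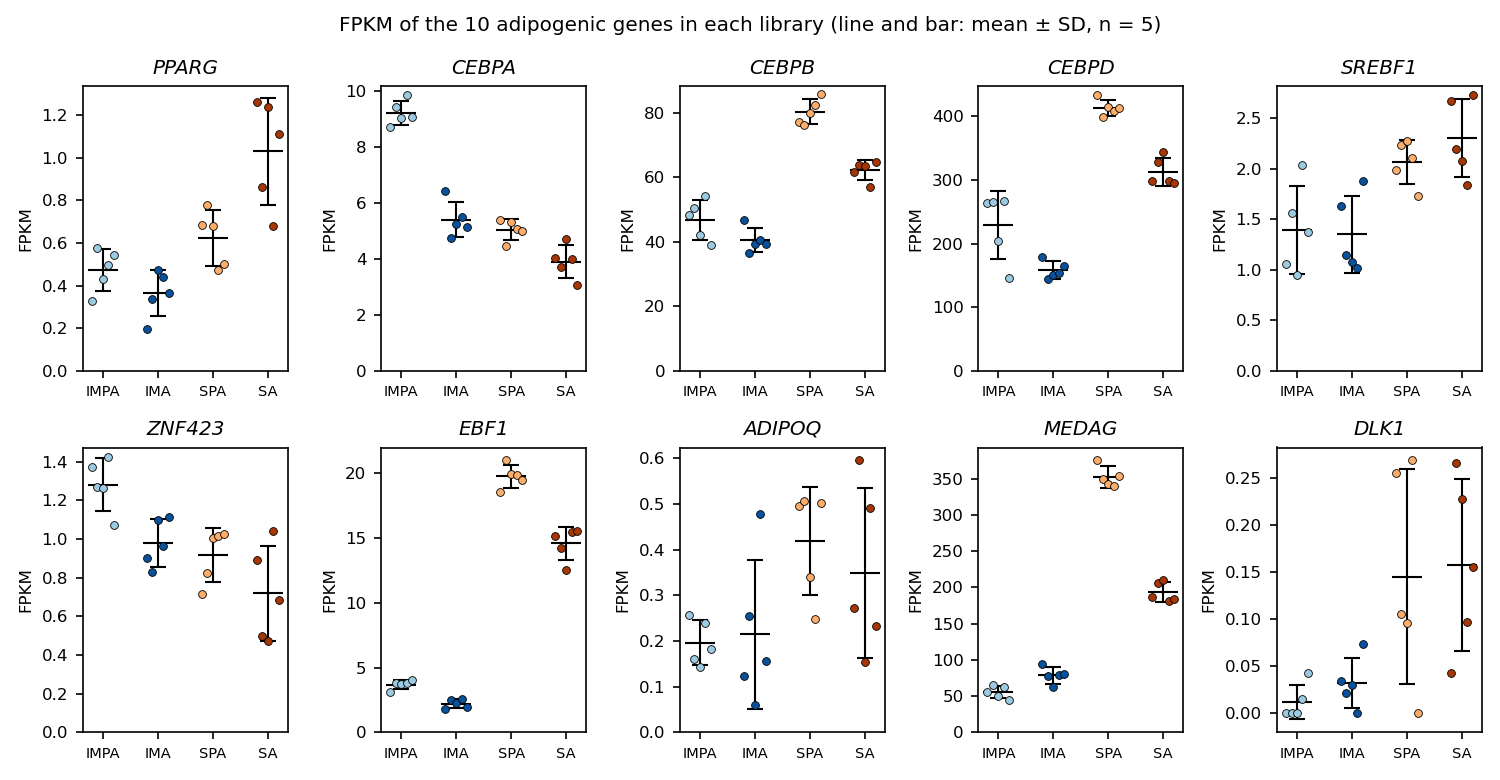
FPKM (y axis, linear, a separate scale for each gene) of the 10 genes in the 4 groups, with a point for each library and the mean ± SD (n = 5) in black. MEDAG lies at 340 to 376 FPKM in SPA and at 44.9 to 65.0 FPKM in IMPA, and PPARG is highest in SA, where 4 of 5 libraries exceed every SPA library.

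The early factors CEBPB and CEBPD were high before induction, and neither was called higher at day 3 in either cell type. In IMPA, CEBPD was at 265, 266, 203, 267 and 146 FPKM, and in IMA at 180, 144, 150, 154 and 165 FPKM. The groups overlapped because IMPA5 lay among the IMA libraries, while the other 4 IMPA libraries lay above all 5 of IMA. CEBPD was called lower in IMA than in IMPA, with a difference of -0.50 ± 0.15 (SE) in log2(FPKM + 1) and a limma adjusted p of 0.0126. In SPA it was at 433, 399, 415, 409 and 413 FPKM and in SA at 298, 329, 344, 298 and 295 FPKM, with every SA library below every SPA library. The SA fall in CEBPD was -0.40 ± 0.047 with an adjusted p of 1.8e-05.

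CEBPB was at 48.3, 50.6, 42.1, 54.1 and 38.9 FPKM in IMPA and at 46.8, 36.6, 39.4, 40.5 and 39.4 FPKM in IMA. These ranges overlapped, and the difference of -0.20 ± 0.088 was not called (adjusted p = 0.0720). It was called without IMPA5 (-0.26, adjusted p = 0.0140) and without IMA1 (-0.25, adjusted p = 0.0289). In SPA, CEBPB was at 77.1, 76.3, 80.1, 82.3 and 85.9 FPKM, and in SA at 61.5, 63.9, 63.7, 57.0 and 64.9 FPKM. No SA library reached the SPA range, and CEBPB fell by 22.6% there (log2 difference -0.36 ± 0.043, adjusted p = 2.1e-05).

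CEBPA, the C/EBP factor of the late programme, fell with stage in both cell types. It was at 8.73, 9.43, 9.05, 9.85 and 9.07 FPKM in IMPA and at 6.43, 4.74, 5.26, 5.49 and 5.15 FPKM in IMA. Every IMA library was below every IMPA library, and the mean was 1.70-fold lower (log2 difference -0.68 ± 0.065, adjusted p = 4.3e-06). In SPA, CEBPA was at 5.39, 4.47, 5.34, 5.08 and 4.99 FPKM, and in SA at 4.03, 3.72, 4.73, 4.01 and 3.06 FPKM. The subcutaneous groups overlapped through SPA2 and SA3, and the fall was -0.31 ± 0.083 with an adjusted p of 0.00794. The fall was larger in the intramuscular cells by -0.37 ± 0.11 on the log2 scale (interaction, adjusted p = 0.00623).

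The 3 C/EBP genes together summed to 285 ± 60.0 FPKM in IMPA, 204 ± 18.2 in IMA, 499 ± 13.3 in SPA and 379 ± 24.1 in SA. Of this sum CEBPD held 79.9%, 77.5%, 82.9% and 82.5%, and CEBPA held 3.36%, 2.65%, 1.01% and 1.03%, in the same order. The make-up of the sum was thus led by CEBPD in all 4 groups. The mean share of CEBPA was highest in IMPA, but its range there, 2.71% to 4.68%, overlapped that in IMA, 2.47% to 2.76%.

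PPARG, the nuclear receptor at the centre of fat cell formation, was low in all groups, above 41.0%, 39.1%, 44.1% and 46.7% of all genes in IMPA, IMA, SPA and SA. Its only transcript, NM_001285658.1, was at 0.328, 0.577, 0.433, 0.495 and 0.544 FPKM in IMPA and at 0.197, 0.340, 0.475, 0.441 and 0.368 FPKM in IMA. These overlapped, with 1.31-fold lower mean values in IMA (two-sided exact permutation p = 0.143). In SPA it was at 0.686, 0.779, 0.680, 0.474 and 0.500 FPKM and in SA at 1.26, 0.864, 1.24, 0.681 and 1.11 FPKM. Only SA4 lay within the SPA range, and the SA mean was 1.65 times the SPA mean (exact permutation p = 0.0238). Under a minimum mean of 0.1 FPKM, limma over all genes gave PPARG an adjusted p of 0.0113 in SA against SPA and of 0.151 in IMA against IMPA, and the difference between these changes was -0.43 with an adjusted p of 0.00300. Without SPA1 the SA difference was 0.33 (exact permutation p = 0.0317), and without SPA1 and SA5 together it was 0.32 with an exact permutation p of 0.0571. Without IMPA1 the IMA difference was -0.15 with an exact permutation p of 0.0476.

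SREBF1 was not called in either stage comparison. It spanned 0.946 to 2.04 FPKM in IMPA and 1.02 to 1.88 FPKM in IMA, a difference of -0.02 with a 95% interval from -0.31 to 0.26 (adjusted p = 0.888). In SPA it spanned 1.73 to 2.27 FPKM and in SA 1.84 to 2.73 FPKM, a difference of 0.10 with an interval from -0.07 to 0.28 (adjusted p = 0.307). Both intervals leave room for changes in either direction.

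The precursor factor EBF1 fell with stage in both cell types and was far lower in the intramuscular cells. It was at 3.12, 3.79, 3.72, 3.83 and 4.03 FPKM in IMPA and at 1.80, 2.50, 2.25, 2.59 and 1.94 FPKM in IMA. The IMPA and IMA ranges did not overlap, and the fall was -0.55 ± 0.080 (adjusted p = 1.0e-04). In SPA it was at 18.5, 21.0, 19.98, 19.9 and 19.5 FPKM, and in SA at 15.2, 14.3, 12.5, 15.5 and 15.5 FPKM. Here too no library crossed between the groups, and the fall was -0.42 ± 0.058 (adjusted p = 7.2e-05). Of 6 EBF1 transcripts, XM_018050099.1 held 44.7% to 53.8% of the group sum, XM_018050098.1 31.0% to 40.3% and XM_018050100.1 10.1% to 15.9%. With the most abundant EBF1 transcript in place of the sum, the stage difference was -0.48 in IMA (adjusted p = 0.0698) and -0.20 in SA (adjusted p = 0.279), and neither was called.

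ZNF423, a zinc finger factor of committed precursors, was at 1.37, 1.27, 1.27, 1.43 and 1.07 FPKM in IMPA and at 0.903, 0.827, 1.10, 0.963 and 1.11 FPKM in IMA. Only IMPA5 lay within the IMA range, and the IMA mean was 1.31-fold lower (exact permutation p = 0.0238). Under the minimum of 0.1 FPKM, limma gave this an adjusted p of 0.0106. In SPA it spanned 0.716 to 1.03 FPKM and in SA 0.473 to 1.04 FPKM, with overlap (p = 0.167 by exact permutation). Without SA4 the SA difference was -0.23 with an exact permutation p of 0.0476.

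MEDAG, the mesenteric estrogen-dependent adipogenesis gene, moved in opposite directions in the 2 cell types. It was at 56.2, 65.0, 49.9, 62.0 and 44.9 FPKM in IMPA and at 94.9, 78.1, 62.3, 79.5 and 79.9 FPKM in IMA. Only IMA3 fell within the IMPA range, and MEDAG rose 1.42-fold (log2 difference 0.50 ± 0.11, adjusted p = 0.00266). In SPA it was at 376, 349, 342, 340 and 354 FPKM, and in SA at 187, 206, 211, 182 and 183 FPKM. No SA library came near the SPA range, and MEDAG was 1.82-fold lower (log2 difference -0.86 ± 0.049, adjusted p = 2.5e-08). The intramuscular change exceeded the subcutaneous one by 1.36 ± 0.13 on the log2 scale (interaction, adjusted p = 2.0e-08).

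The hormone gene ADIPOQ did not differ between stages beyond its spread. It spanned 0.144 to 0.257 FPKM in IMPA, 0.0593 to 0.477 in IMA, 0.249 to 0.507 in SPA and 0.154 to 0.596 in SA, and the exact permutation p was 0.929 for IMA against IMPA and 0.437 for SA against SPA. Its transcript XM_018056531.1 was above 0 in every library, while NM_001287573.1 was at 0 in 4 of 5 libraries of IMPA and of IMA, in 1 of SPA and in 4 of SA.

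DLK1 was listed at 0 in 3 IMPA libraries, 1 IMA library and 1 SPA library. Its highest values were 0.0421 FPKM in IMPA, 0.0729 in IMA, 0.269 in SPA and 0.266 in SA. At this depth, stage differences were not detectable (exact permutation p = 0.230 for IMA against IMPA and 0.810 for SA against SPA).

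Over the 6 genes tested by limma, 1 was called higher and 3 lower in IMA than in IMPA, where 60.1% of all 11432 genes tested were called (19.9% higher and 40.2% lower). CEBPA and EBF1 were without overlap between the 5 IMA and the 5 IMPA libraries, as were 43.5% of all genes tested (14.3% higher and 29.2% lower). In SA against SPA, 0 were called higher and 5 lower, beside 52.1% of all genes (26.1% higher and 26.0% lower), and CEBPB, CEBPD, EBF1 and MEDAG were without overlap, as were 38.8% of all genes (19.8% higher and 19.0% lower). Because the 6 genes were chosen with results known, their shares were not tested against these backgrounds. With the library covariate of Ballgown in an ordinary linear model, 1 of the 6 was called in IMA against IMPA, CEBPA, and 4 in SA against SPA, where CEBPA was lost (-0.21, adjusted p = 0.185). The median log2 difference of the 6 genes was -0.35 in IMA and -0.38 in SA, and that of all genes was -0.085 and -0.0091. With the gene sums of each library scaled to the same total, calls over all genes in SA moved from 2982 higher and 2975 lower to 2327 higher and 4038 lower. For the interaction, 2 of the 6 genes were called, beside 55.3% of all genes (20.7% above and 34.6% below 0), and quantile normalization moved the calls over all genes from 2368 above and 3951 below 0 to 2987 above and 3241 below. The interaction of CEBPB, CEBPD, SREBF1 and EBF1 was not called, with 95% intervals from -0.05 to 0.38, from -0.44 to 0.25, from -0.47 to 0.21 and from -0.34 to 0.08. Without IMPA5, that of CEBPD was -0.25 with an adjusted p of 0.0474.

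**Figure D2:**
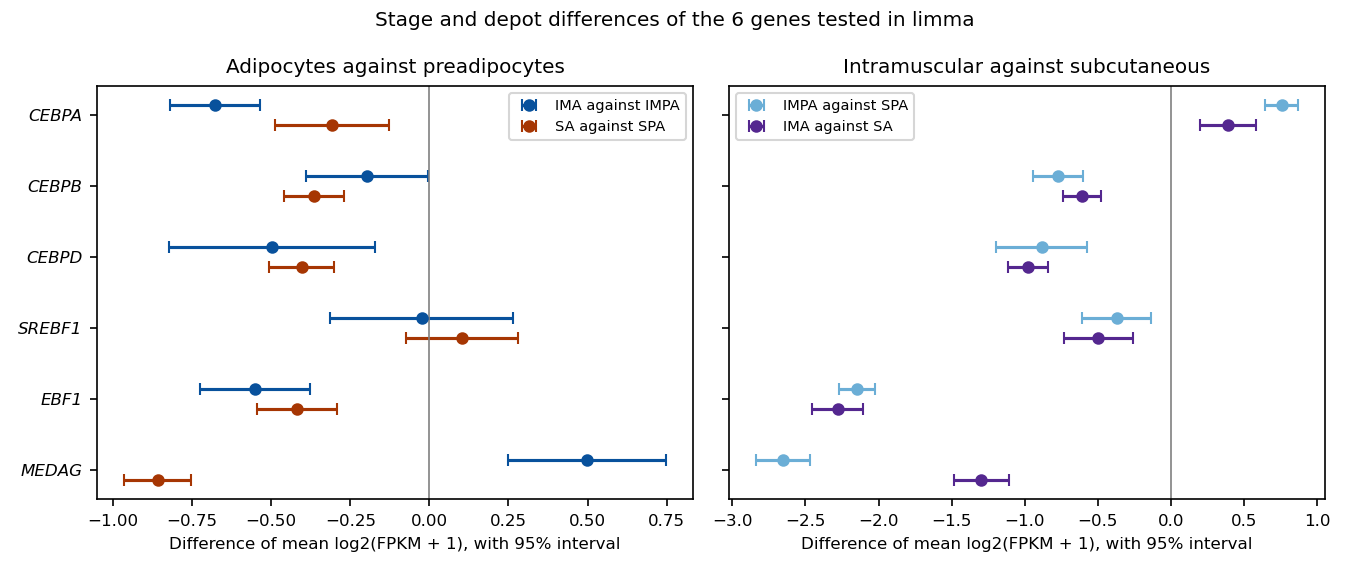
Differences of mean log2(FPKM + 1) with 95% intervals (x axis) for the 6 genes tested in limma (y axis), adipocytes against preadipocytes on the left and intramuscular against subcutaneous cells on the right, 5 libraries in each group. MEDAG lies at 0.50 in IMA and at -0.86 in SA, and CEBPA is the only gene to the right of 0 in both depot comparisons.

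Between depots, the comparison asks how cells of the same stage differ by origin. All 6 tested genes differed at both stages, with 1 higher and 5 lower in the intramuscular cells each time. The background was high, with 75.1% of all genes called in IMPA against SPA (42.3% higher and 32.9% lower) and 72.4% in IMA against SA (29.0% higher and 43.4% lower). With the Ballgown library covariate, MEDAG alone was called in IMPA against SPA (-4.14, adjusted p = 0.0251), CEBPA, CEBPB, CEBPD, SREBF1 and EBF1 losing their calls, and 5 of the 6 were called in IMA against SA, where SREBF1 was lost (-0.44, adjusted p = 0.154). At day 0, MEDAG was 6.33-fold lower in IMPA than in SPA (log2 difference -2.65 ± 0.086, adjusted p = 2.1e-11) and EBF1 5.35-fold lower (-2.15 ± 0.055, adjusted p = 2.5e-12). At day 3, MEDAG was 2.46-fold lower in IMA than in SA (-1.30 ± 0.087, adjusted p = 6.8e-09) and EBF1 6.59-fold lower (-2.28 ± 0.080, adjusted p = 4.1e-12). CEBPB was lower in IMPA and IMA by 0.77 and 0.61 on the log2 scale, CEBPD by 0.88 and 0.98, and SREBF1 by 0.37 and 0.50.

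CEBPA was the exception among the tested genes. Its mean was 1.83 times as high in IMPA as in SPA (log2 difference 0.76 ± 0.051, adjusted p = 2.8e-08) and 1.38 times as high in IMA as in SA (0.39 ± 0.089, adjusted p = 0.00136). IMPA and SPA did not overlap for CEBPA, CEBPB, CEBPD, EBF1 and MEDAG, beside 63.4% of all genes (35.9% higher and 27.5% lower), and the same 5 did not overlap between IMA and SA, beside 58.6% (24.0% higher and 34.7% lower). For both MEDAG and EBF1 the order of the group means was SPA, then SA, then the intramuscular groups. The lowest SA value of MEDAG, 182 FPKM, was above its highest IMA value, 94.9 FPKM.

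Among the genes under the minimum, PPARG did not overlap between IMA and SA and was 2.83-fold lower in IMA (exact permutation p = 0.00794, the smallest that 5 against 5 libraries can give). In IMPA against SPA it was 1.31-fold lower with overlap (p = 0.0873 by exact permutation, and 0.0476 without SPA4). ZNF423 was 1.40 times as high in IMPA as in SPA without overlap (exact permutation p = 0.00794). In IMA against SA its ratio was 1.37 with an exact permutation p of 0.0714, and without SA4 the log2 difference was 0.28 with a p of 0.0159. ADIPOQ was 2.13-fold lower in IMPA than in SPA with overlap (exact permutation p = 0.0159), and in IMA against SA the p was 0.222. Its day 0 means were only 0.197 and 0.419 FPKM, so this difference too may rest on few fragments. Transcript NM_001287573.1 averaged 0.0258 FPKM in IMPA and 0.185 in SPA, and XM_018056531.1 averaged 0.171 and 0.234. DLK1 was lower in IMA than in SA with overlap (exact permutation p = 0.0159). All its values there were near 0, at most 0.0729 FPKM in IMA and 0.266 in SA, so this difference may rest on few fragments. In IMPA against SPA its exact permutation p was 0.0476, and it was 0.0556 without SPA1 or SPA4, 0.0635 without IMPA4 and 0.0714 without IMPA1, IMPA2 or IMPA3.

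The muscle genes moved with the depot as well, since all 12 tested were higher in IMPA than in SPA and in IMA than in SA, and their sums are given above. Of 12 tested stromal genes, 2 were higher and 8 lower in IMPA than in SPA, and 2 higher and 9 lower in IMA than in SA, with medians of -1.13 and -0.54. The counts of both lists stand beside 75.1% of all genes called in IMPA against SPA (42.3% higher and 32.9% lower). In IMA against SA the share was 72.4% (29.0% higher and 43.4% lower). The part of either group of cells in the depot differences of the 10 genes was not tested.

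Because PDGFRA itself was lower in the intramuscular cells and fell with stage, the 6 tested genes were also set against it within each library, a ratio chosen after the values were seen. MEDAG was at 34.3% to 40.1% of the PDGFRA level in IMPA, 62.9% to 83.3% in IMA, 59.2% to 63.9% in SPA and 56.4% to 61.4% in SA. On this ratio, IMA was above IMPA (exact permutation p = 0.00794), SA and SPA overlapped (log2 difference -0.053, exact permutation p = 0.159), and IMA was above SA (0.31, exact permutation p = 0.00794), the reverse of the order by FPKM. CEBPD was at 111% to 172% of PDGFRA in IMPA, 129% to 160% in IMA, 68.6% to 73.8% in SPA and 92.4% to 100.3% in SA. EBF1 stayed lower in the intramuscular cells, at 2.03% to 3.08% in IMPA and 1.57% to 2.46% in IMA against 3.15% to 3.62% in SPA and 3.64% to 5.03% in SA. The subcutaneous falls of CEBPA, CEBPB, CEBPD and EBF1 were smaller than that of PDGFRA, so that relative to it all 4 were higher in SA (log2 0.43, 0.44, 0.40 and 0.37, each with an exact permutation p of 0.00794). Against the sum of the 14 stromal genes, these 4 differences stayed below 0, at -0.18, -0.16, -0.20 and -0.24. The exact permutation p was 0.151 for CEBPA and 0.00794 for CEBPB, CEBPD and EBF1. A few abundant genes lead this sum. In SA, COL3A1, DCN and VIM averaged 4975, 4120 and 2071 FPKM, beside sums of 12260 to 12758 FPKM.

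**Figure D3:**
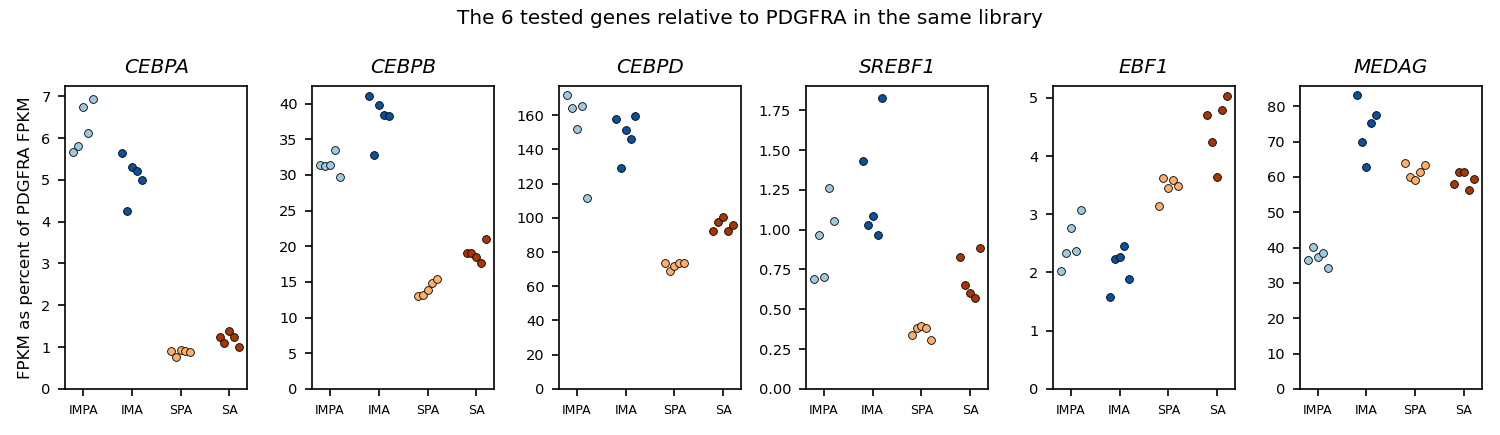
FPKM of the 6 tested genes as a percent of the PDGFRA FPKM of the same library (y axes, linear, a separate scale for each gene), a point for each of 20 libraries in 4 groups. MEDAG lies at 34.3% to 40.1% in IMPA, and its SPA and SA ranges overlap.

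Shares called among the further lists are to be read beside those of all genes, 19.9% higher and 40.2% lower in IMA and 26.1% higher and 26.0% lower in SA. RXRA, the receptor that binds DNA together with PPARG, fell from 6.16 ± 0.390 to 4.18 ± 0.315 FPKM in IMA (log2 difference -0.47, adjusted p = 2.3e-05) and from 10.6 ± 0.414 to 7.40 ± 0.527 FPKM in SA (-0.47, adjusted p = 9.0e-06). Of 12 tested partners and coregulators, 1 was higher and 7 lower in IMA, with a median of -0.19, and 1 was higher and 8 lower in SA, with a median of -0.22. The acetyltransferase gene EP300 was lower in both (-0.52 and -0.36). CREBBP, a relative of EP300, was lower in both (-0.58 and -0.28), and the corepressor gene NRIP1 was higher in both (0.16 and 0.23).

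Of 16 other transcription factors linked to adipogenesis and tested, 2 were higher and 9 lower in IMA. In SA, 3 were higher and 8 lower. The medians were -0.24 in IMA and -0.17 in SA, where 60.1% and 52.1% of all genes were called. The list was not split by role and holds ZNF521, TCF7L2 and CEBPG, so its counts do not measure drivers of adipogenesis alone. EBF3, from the family of EBF1, fell 2.27-fold in IMA (adjusted p = 5.9e-07) and 2.16-fold in SA (adjusted p = 1.3e-08). CEBPG, a C/EBP protein without an activation domain, fell in IMA (-0.58) and rose in SA (0.39). The sterol regulator SREBF2 fell in both (-0.72 and -0.55), as did KLF9 (-0.16 and -0.54). The clock-linked repressor BHLHE40 rose in IMA (0.92) and fell in SA (-0.58). NFIB rose in SA (0.60) and was at -0.23 in IMA, which was not called.

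Among 20 tested genes tied to the restraint of adipogenesis, 4 were higher and 9 lower in IMA. In SA, 3 were higher and 8 lower. The medians were -0.099 in IMA and -0.12 in SA, where 60.1% and 52.1% of all genes were called. The list was not split by role and holds SFRP1, a secreted WNT antagonist, so its counts do not measure brakes on adipogenesis alone. The Hippo co-activator gene WWTR1 rose from 51.6 to 74.2 FPKM in IMA (adjusted p = 2.2e-07), and the Notch target HES1 rose from 8.45 to 15.2 FPKM there and from 13.1 to 16.7 FPKM in SA, where WWTR1 was lower (-0.14). NOTCH1 and SIRT1 fell in IMA (-0.48 and -0.51) and were not called in SA (0.15 and -0.075). WNT5A rose in both, from 7.31 to 19.6 FPKM in IMA (log2 difference 1.43, adjusted p = 6.0e-04) and from 0.315 to 0.687 FPKM in SA (0.36, adjusted p = 1.2e-04). ID2 fell in both, from 16.5 to 12.4 FPKM in IMA and from 67.9 to 47.3 FPKM in SA. In SA, SMAD3 fell from 30.4 to 19.5 FPKM (adjusted p = 1.2e-07) and SFRP1 from 41.5 to 26.4 FPKM, while in IMA they were at -0.078 and -0.011, which was not called.

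Of the 29 genes of the mature fat cell in the table, 14 averaged under 1 FPKM in IMPA, IMA and SPA and 13 in SA. Such low means were common over all genes. In IMA, 44.7% of all genes lay below the 0.981 FPKM of ZNF423, and in SPA 46.2% below its 0.917 FPKM. In SA, 46.7% lay below the 1.03 FPKM of PPARG. The counts for the list are thus near the share over all genes. PLIN1, the lipid droplet coat protein of mature fat cells, averaged 0.258 FPKM in IMPA, 0.276 in IMA, 0.128 in SPA and 0.245 in SA. The hormone genes LEP and RETN and the adipsin gene CFD averaged at most 0.154, 0.00666 and 0.237 FPKM in any group. LIPE, the hormone-sensitive lipase gene, averaged 0.105 to 0.384 FPKM, and PLIN4 at most 0.0420 FPKM. Others were higher in some groups. CIDEA, a lipid droplet protein gene, averaged 27.8 FPKM in IMPA and 44.4 FPKM in IMA, where it rose (log2 difference 0.65, adjusted p = 0.00155), against 7.47 FPKM in SPA and 8.79 FPKM in SA. Its relative CIDEC averaged 4.65 and 4.35 FPKM in SPA and SA and at most 0.333 FPKM in the intramuscular groups. The lipoprotein lipase gene LPL averaged 0.549 FPKM in SPA and 1.34 FPKM in SA without overlap, and 1.02 and 0.941 FPKM in IMPA and IMA. AQP7, a glycerol channel gene, averaged 0.0242 FPKM in IMPA and 0.250 FPKM in IMA without overlap, and was listed at 0 in every SPA and SA library. The genes of this paragraph were named after their values were seen, and LPL and AQP7 lay under the minimum for limma.

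Of the 16 mature adipocyte genes tested, 4 rose and 4 fell in IMA, and 5 rose and 5 fell in SA, with medians of -0.038 and 0.023, beside 60.1% and 52.1% of all genes called. PLIN2, a lipid droplet coat gene of most cell types, rose from 49.8 ± 12.5 to 166 ± 23.0 FPKM in IMA (adjusted p = 2.5e-06) and from 257 ± 5.58 to 396 ± 17.6 FPKM in SA (adjusted p = 2.7e-08). The fatty acid carrier CD36 rose from 0.252 to 4.91 FPKM in IMA (log2 difference 2.24, adjusted p = 2.8e-10) and from 0.0679 to 0.934 FPKM in SA (0.84, adjusted p = 2.6e-05). The acyl-CoA synthetase gene ACSL1 rose 1.86-fold in IMA and was 1.88-fold lower in SA. FASN, the fatty acid synthase gene, was 1.95-fold lower in IMA and not called in SA (-0.035). SCD, the stearoyl-CoA desaturase gene, was 1.28-fold lower in IMA and 2.31-fold lower in SA. FABP5 was 1.54-fold lower in IMA and rose 1.40-fold in SA.

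**Figure D4:**
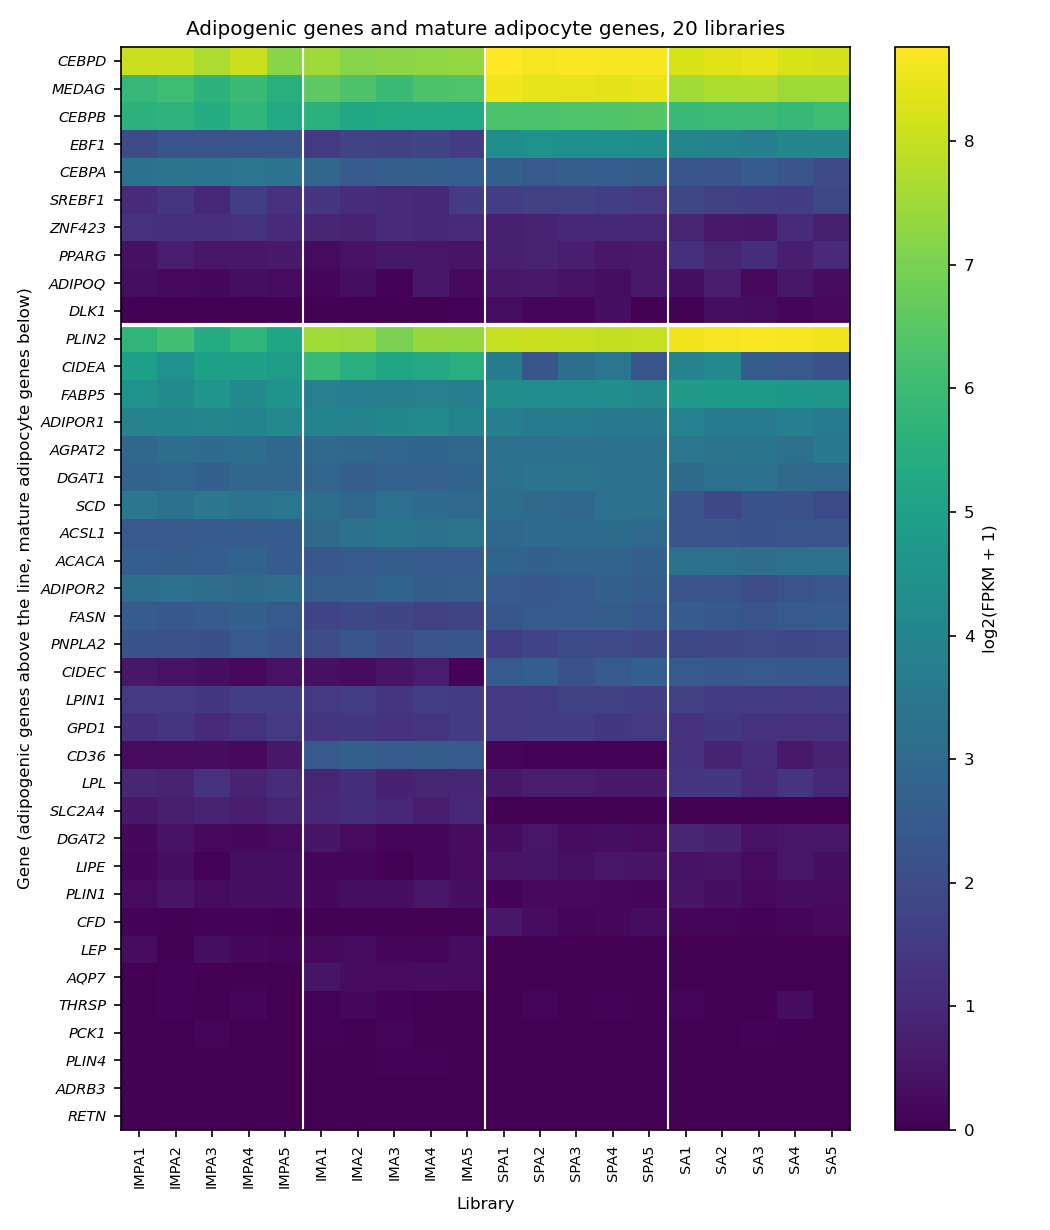
Levels as log2(FPKM + 1) (colour) of the 10 genes (above the white line) and 29 mature adipocyte genes (below) in the 20 libraries (x axis), each block ordered by mean FPKM. CEBPD, MEDAG, CEBPB and PLIN2 are bright in all 4 groups, while PLIN1, LEP, CFD, PLIN4 and RETN stay dark in IMA and SA.

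Fatty acid responsive targets of the PPAR family are genes that fatty acids switch on through these receptors. Of 13 tested, 9 rose and 0 fell in IMA, with a median of 0.40 against -0.085 over all genes, of which 19.9% rose and 40.2% fell. In IMA, CPT1B, the muscle form of the mitochondrial fatty acid importer, rose from 1.19 to 5.81 FPKM (adjusted p = 1.0e-09), PDK4, a kinase that spares glucose, rose from 1.33 to 9.25 FPKM (adjusted p = 3.8e-09), and UCP2 rose from 0.889 to 8.10 FPKM. In SA, 5 rose and 4 fell, with a median of 0.013, beside 26.1% and 26.0% of all genes. CPT1B was lower there (-0.18), and UCP2 averaged 0.0323 FPKM. PDK4 rose there from 3.98 to 9.11 FPKM (adjusted p = 1.0e-08), and CPT1A and ANGPTL4 rose 1.31-fold and 1.38-fold. ANGPTL4 rose 2.21-fold in IMA, while CPT1A was not called there (0.20). PLIN2 also belongs to this list. The part of muscle cells in the intramuscular changes of this list was not tested.

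Markers of other cell types moved with stage beside these results. The counts stand beside 60.1% of all genes called in IMA and 52.1% in SA. In IMA, 10 of 12 tested muscle genes were higher and 1 lower, MYOD1 (-0.71). MYL1, TNNT3 and MYLPF rose 6.45-fold, 7.77-fold and 4.27-fold, and MYH8 rose 12.2-fold. Of 12 tested stromal genes, 2 were higher and 4 lower in IMA, among them DPP4 (-1.01), PDGFRA (-0.47) and DPT (-0.63). In SA, 0 muscle genes were higher and 2 lower, among them MYF5 (from 0.296 to 0.0108 FPKM), while 1 stromal gene was higher and 10 were lower, with THY1, PDGFRA, NT5E and VIM at -1.21, -0.81, -0.45 and -0.55, and DPP4 and DPT at -0.47 and -0.51.

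Proliferation genes went opposite ways. All 12 tested were higher in SA, where RRM2 rose from 10.7 to 80.4 FPKM and CDK1, TOP2A and TYMS rose 5.07-fold, 5.23-fold and 3.15-fold. In IMA, 9 of 12 were lower, among them MCM2, MCM5, PCNA and RRM2 (-0.95, -1.09, -0.66 and -0.62). The macrophage genes CD68 and CD14 rose 1.68-fold each in IMA, and CD68 was 1.85-fold lower in SA. They were the only 2 tested of 7 macrophage and leukocyte genes in the table. The others, PTPRC, CSF1R, AIF1, TYROBP and ITGAM, averaged at most 0.00522, 0.0408, 0.0308, 0.0871 and 0.131 FPKM in any group. The endothelial gene ERG averaged 4.77 and 4.95 FPKM in IMPA and IMA and 1.24 and 1.77 FPKM in SPA and SA. VWF averaged at most 0.460 FPKM. Of 10 housekeeping genes, 1 was higher and 6 lower in IMA, with ACTB, B2M, TBP and PPIA at -0.52, -0.32, -0.36 and -0.27, and 3 were higher and 5 lower in SA, with GAPDH, PPIA, ACTB and YWHAZ at -0.42, 0.44, -0.58 and -0.21. The part of these cell types, of the cell cycle and of depth in the stage changes of the 10 genes was not tested.

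**Figure D5:**
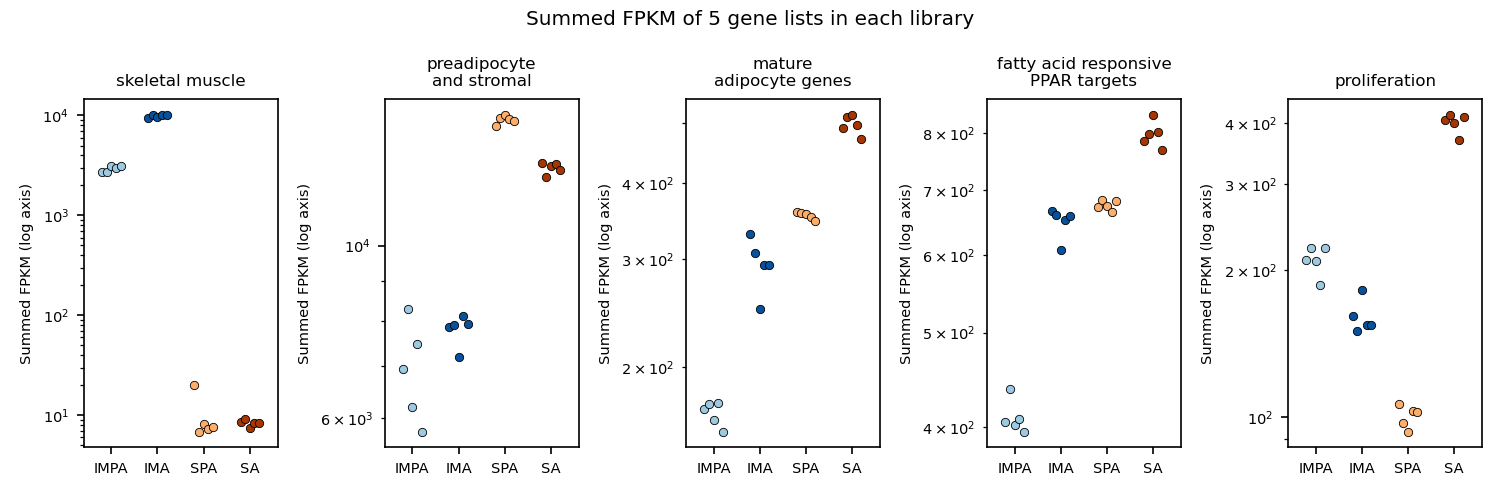
Summed FPKM (y axes, log scale, a separate scale for each list) of the skeletal muscle, stromal, mature adipocyte, fatty acid responsive and proliferation genes in each library of the 4 groups (x axis). The muscle sum is at least 2713 FPKM in every intramuscular library and at most 20.1 FPKM in every subcutaneous one, and the proliferation sum is highest in SA.

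The pattern over the 20 libraries was compared with that of every tested gene for the 4 members whose group means spanned at least 1 on the log2 scale. CEBPA was nearest to CD63, EPHB4 and PDLIM7, with root mean square differences of 0.14, 0.16 and 0.16 on the log2 scale between centred profiles. CEBPD was nearest to GINM1, SLC8B1 and IFI6 (0.11, 0.14 and 0.15). EBF1 was nearest to SNAI2, PRRX1 and FLRT2 (0.15, 0.15 and 0.17). MEDAG was nearest to CES2, TWIST2 and LOC102176126 (0.17, 0.22 and 0.23). PRRX1, for example, averaged 54.7, 47.9, 265 and 205 FPKM in IMPA, IMA, SPA and SA, the same order as EBF1. CEBPB and SREBF1 spanned 0.97 and 0.50 and were not compared.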

How the data were processed

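RNA was sequenced by the authors in strand-specific libraries, 5 for each of 4 cell groups. According to the study's methods, reads were aligned to the goat ARS1 genome with HISAT2 2.0.4, and expression was calculated with StringTie 1.3.1 and Ballgown. The deposited values are FPKM per transcript, in tables of mRNAs, annotated lncRNAs and newly assembled lncRNAs. They come without counts, so the fragments behind a value are not known, and a listed 0 may be a transcript too rare for its library.

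The mRNA transcripts were summed per gene symbol and taken as log2(FPKM + 1), a scale that understates the change of low genes. Genes averaging 1 FPKM or more in the 20 libraries, 11432 in all, entered limma 3.58.1 (R 4.3.3) with a variance trend, in 10 libraries per comparison or in 20 for the interaction of stage and cell type. Adjusted p values follow Benjamini-Hochberg over all genes tested, and a gene was called under 0.05. For genes below the minimum, two-sided exact permutation tests ran over 252 divisions, without adjustment. Relative depth was estimated from the spacing of values under 0.15 FPKM. The limma step alone was tested on simulated data.

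The 10 genes and the further lists were chosen with earlier results of these data known. FABP4, STAT5A, MYMK, MYH3 and CD163 of the lists matched no symbol and are not analysed here. All 10 genes are described. In the comparisons of stage, up to 4 genes of each further list are named, those with the smallest p among genes called without overlap, or the 2 with the highest mean where none passed, and other list genes were named after their values were seen. A gene that this rule would name is not reported here. Nearest genes are the 3 with the smallest root mean square difference between centred profiles, for members whose group means spanned at least 1 on the log2 scale. Transcripts are named from 5% of a gene's FPKM in a group.

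Alternatives covered a minimum of 0.1 FPKM or none, a pseudocount of 0.1, upper-quartile, equal-total and quantile scaling, limma without the trend or with all 4 groups, Ballgown's library-size covariate in an ordinary linear model, the replicate number as a block, transcripts in place of genes, and leaving out each library or SPA1 and SA5. Ratios to PDGFRA and to the summed stromal genes were added after the values were seen. Python 3.11.15, numpy 2.4.6, pandas 2.3.3 and matplotlib 3.10.9 were used.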

Additional observations from a re-analysis of the deposited data

Results flagged for a closer look

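The genes examined here were the 10 adipogenic genes, the list genes named by the rule and some list genes named after their values were seen. The nearest genes were left out, as were ZNF521, TCF7L2, COL3A1 and DCN, whose interactions were not called. Of the genes examined, limma could test 67, and for 49 of these the change with stage differed between the intramuscular and the subcutaneous cells. Most list genes had been named for small p values in the comparisons of stage, so this share is not set against that of all genes. Values are the intramuscular minus the subcutaneous change in log2(FPKM + 1), a scale that understates the change of low genes. For genes near 0 in the subcutaneous cells, such as UCP2 and MYH8, the value mostly restates the intramuscular change. WNT5A, at 0.315 FPKM in SPA and 0.687 in SA, rose 2.68-fold in IMA and 2.18-fold in SA, yet its value is 1.07. Of the 10 adipogenic genes, CEBPA was at -0.37 and MEDAG at 1.36, and the latter was the only one of the 6 tested genes whose called changes ran in opposite directions. Among the fatty acid handling genes, CD36 was at 1.41, ACSL1 at 1.53, PLIN2 at 1.11, PDK4 at 1.13, CPT1B at 1.82, UCP2 at 2.25, ANGPTL4 at 0.70, SCD at 0.69, FABP5 at -1.04 and FASN at -0.71.

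Among the regulators, BHLHE40 was at 1.499, WNT5A at 1.07, WWTR1 at 0.65, SFRP1 at 0.62, SMAD3 at 0.54, HES1 at 0.46 and KLF9 at 0.38. CEBPG was at -0.97, NFIB at -0.83, NOTCH1 at -0.63, SIRT1 at -0.43 and CREBBP at -0.30. Of the muscle genes, MYH8 was at 3.35, TNNT3 at 2.85, MYL1 at 2.78, MYLPF at 2.38, MYF5 at 0.79 and MYOD1 at -0.72. Of the proliferation genes, RRM2 was at -3.42, MCM5 at -2.58, PCNA at -2.25, TOP2A at -2.24, CDK1 at -2.12, MCM2 at -2.001 and TYMS at -1.99. Of the stromal genes, THY1 was at 1.19, VIM at 0.78, NT5E at 0.58, PDGFRA at 0.34 and DPP4 at -0.54. The macrophage genes CD68 and CD14 were at 0.88 and 0.84. Of the housekeeping genes, GAPDH was at 0.74, YWHAZ at 0.19, TBP at -0.32, B2M at -0.51 and PPIA at -0.70.

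Single libraries far from the other 4 of their group were found in 25 of 320 groups over 80 genes. The rule gives about 1 in 20 by chance for normally distributed values only, so this share is not set against it. Where the other 4 libraries were at 0, as for MYF5 in SA and UCP2 in SPA, any value above 0 was flagged. Groups with all values equal are counted in the 320 but could not be flagged. None was among the 10 adipogenic genes. SPA1 was high in MYLPF (6.415 FPKM), MYL1 (0.8688), CD36 (0.1171) and GAPDH (1698). IMA3 was low in GAPDH (1155), VIM (1188), WWTR1 (70.95) and WNT5A (16.75). SA5 was high in MYF5 (0.05405) and MYH8 (0.03499), SA1 was high in CPT1A (35.67) and low in CD68 (0.9593), and SA4 was low in SIRT1 (8.105). IMPA5 was high in ACTB (650.1) and CD36 (0.4696). CREBBP was high in IMPA4 (3.87) and SPA4 (2.929), and UCP2 was at 0.1181 FPKM in SPA4 and at 0 in the other SPA libraries. AQP7 was at 0.4107 FPKM in IMA1, CFD at 0.4705 in SPA1, PLIN4 at 0.01529 in SPA2 and RETN at 0.03331 in IMPA1. MYOD1 was at 0.03625 FPKM in SA4, and MYOG at 0.6193 in SPA1 and 0.3972 in SA5.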

How the results depend on the processing

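Of 976 values of the 10 genes under the alternatives, 924 kept their direction and their side of the threshold, 21 lost it, 13 gained it and 18 reversed, and 0 of these reversals were of a value that had passed. The ordinary linear model with the Ballgown library covariate called 1397 genes and 1 member in IMA against IMPA, 1015 genes and 1 member in IMPA against SPA, and 3802 genes for the interaction, against 6867, 8588 and 6319, and in IMA against IMPA the calls of CEBPD, EBF1 and MEDAG were lost, and in IMPA against SPA those of CEBPA, CEBPB, CEBPD, SREBF1 and EBF1. The cause was not tested. Leaving out a library in turn gave 6362 to 6878 genes and 4 to 5 members in IMA against IMPA, 5441 to 5872 genes and 5 members in SA against SPA, 8334 to 8536 genes in IMPA against SPA, 7964 to 8187 in IMA against SA, and 6054 to 6381 genes and 2 to 3 members for the interaction. Replicate numbers are shared by the groups, but the correlation of deviations between same-numbered libraries ran from -0.2418 to 0.1224, and 3, 1, 2 and 0 of 5 libraries correlated best with their own number in the 4 comparisons, so the numbers were not taken as pairs. With the replicate number as a block, 6826, 5602, 8530 and 8059 genes were called in IMA against IMPA, SA against SPA, IMPA against SPA and IMA against SA, and 6269 for the interaction. No call of the 6 genes tested by limma changed. PPARG, ZNF423, ADIPOQ and DLK1 were not run with the block.

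The reversals among small values were as follows. ADIPOQ in IMA against IMPA came to -0.043 with a pseudocount of 0.1, -0.0025 scaled to an equal total, -0.012 with quantile normalization, -0.0037 without IMPA3, -0.0018 without IMA2 and -0.061 without IMA4, and its highest value was 0.059 without IMA3. SREBF1 there came to 0.0047 without IMPA2, 0.066 without IMPA4, 0.0046 without IMA2, 0.017 without IMA3 and 0.028 without IMA4, and its lowest value was -0.10 without IMA5. DLK1 in SA against SPA came to -0.030 without SPA5, -0.016 without SA2 and -0.0046 without SA3, and its highest value was 0.056 without SPA4. ZNF423 in IMA against SA came to -7.9e-04 with quantile normalization. With the Ballgown covariate, SREBF1 came to -0.016 in SA against SPA and, for the interaction, SREBF1 to 0.014 and EBF1 to 0.23.

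Ratios to PDGFRA were chosen after the values were seen. Dividing by it shifts every gene of a comparison by the change of PDGFRA itself, so genes that fell by less than PDGFRA turn positive by construction. CEBPA in SA against SPA came to 0.43. CEBPB came to 0.27, 0.44, 1.16 and 1.00 in IMA against IMPA, SA against SPA, IMPA against SPA and IMA against SA, and SREBF1 to 0.435, 1.34 and 0.82 in the first, the third and the last of these. CEBPD came to 0.40, 1.065 and 0.63 in SA against SPA, IMPA against SPA and IMA against SA, EBF1 to 0.37 in SA against SPA and MEDAG to 0.31 in IMA against SA. Dividing by the summed stromal genes put CEBPB at 0.29 and 0.071 in the depot comparisons and CEBPD at 0.19 and SREBF1 at 0.46 in IMPA against SPA. PDGFRA and the stromal sum differ between the groups themselves, so these ratios show unequal change and no absolute level.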
